A study of Mus musculus with 8 samples.

Results

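The transcripts of 10 genes of the Hsp90 and Hsp60 chaperone systems were examined by bulk RNA-seq in 4 photoconverted and 4 control tumors. The genes were listed by name and function, with earlier results of these data known. They were the Hsp90 paralogs Hsp90aa1, Hsp90ab1, Hsp90b1 and Trap1, and the mitochondrial chaperonin genes Hspd1 and Hspe1. The others were the Hsp90 cochaperone genes Stip1, Ahsa1, Chordc1 and Fkbp4. All 10 were present among the 24421 genes of the raw count table and among the 14468 genes that passed the expression filter. MC38 is a mouse colon adenocarcinoma line, and 250000 MC38 cells were given to each 9-week-old female Kaede mouse on a B6 background. Kaede is a fluorescent protein that turns from green to red under violet light, and the mice of both groups carried it. Photoconverted tumors received 405-nm light for 3 min on day 10, control tumors received none, and tumors of both groups were taken 5 h after the light. The comparison asks whether light exposure itself altered expression of these genes. Whole tumors were sequenced, so a difference in the cells present and a difference in RNA per cell cannot be told apart for any gene below.

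Hsp90 is an ATP-driven chaperone that completes the folding of kinases, steroid receptors and other client proteins. Cytosolic Hsp90 receives clients from Hsp70 and works with cochaperones that deliver clients, set the pace of its ATPase or act on particular receptors. Hsp60 and its lid Hsp10 form a folding chamber in the mitochondrial matrix, while Grp94, encoded by Hsp90b1, and TRAP1 are the Hsp90 proteins of the endoplasmic reticulum (ER) and of mitochondria. After heat or other stress that damages proteins, the transcription factor HSF1 binds heat shock elements, in which the units GAA and TTC alternate with 2 bases between them. Unfolded protein in the ER acts on a different set of genes, many of which carry the ER stress response element.

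Promoter windows from RefSeq (GRCm38.p6, from before to just after a transcript start) were found for 8 of the 10 genes, in 9 windows. Hsp90aa1 and Hsp90ab1 had no entry. The stretches shown are those in which the letters of a heat shock element or of the ER stress response element were found. Capitals mark the GAA and TTC units in the stretches from Hspe1, Chordc1 and Fkbp4, and the CCAAT and CCACG parts, or their reverse complements, in the stretch from Hsp90b1.
Hspe1, chr1:55088018-55088117, plus strand: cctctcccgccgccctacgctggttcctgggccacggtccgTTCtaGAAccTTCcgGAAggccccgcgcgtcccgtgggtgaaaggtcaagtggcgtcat
Chordc1, chr9:18292263-18292285, plus strand: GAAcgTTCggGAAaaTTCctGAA
Fkbp4, chr6:128438757-128438846, minus strand: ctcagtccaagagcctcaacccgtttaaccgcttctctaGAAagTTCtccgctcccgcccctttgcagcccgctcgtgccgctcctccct
Hsp90b1, chr10:86705525-86705684, minus strand: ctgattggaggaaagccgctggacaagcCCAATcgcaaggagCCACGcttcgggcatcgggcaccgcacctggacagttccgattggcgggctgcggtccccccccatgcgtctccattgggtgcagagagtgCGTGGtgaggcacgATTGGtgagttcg

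The Hspe1 stretch held 4 alternating units, and the same bases lay in 1 of the 2 windows of Hspd1, which is transcribed in the opposite direction. That window spans positions 55087883 to 55088182. The other Hspd1 window, 55088194 to 55088493, holds the Hspd1 start given next but not these bases, and had no more than 1 unit in a row. In the GENCODE M21 models (mm10) Hspd1 starts at position 55088243 and Hspe1 at position 55088132 of chromosome 1, head to head, with gene models that overlap by 112 bases. Chordc1 held 5 alternating units that began 4 bases before the RefSeq start and ended 19 bases after it. Among 32851 windows of the table, 0.603% held at least 3 such units, 0.0244% at least 4 and 0.00304%, the Chordc1 window alone, 5. Fkbp4 held 2 units, the letters GAANNTTC, and 15.1% of windows held these letters or the opposite order TTCNNGAA. The letters found are a description and not evidence of binding. No inverted pair was found in the windows of Hsp90b1, Trap1, Stip1 and Ahsa1, or in the Hspd1 window that holds the GENCODE start. The Hsp90b1 window held the letters CCAAT and CCACG with 9 bases between them 2 times, once on each strand, where 0.119% of all windows held them at least once. Both strands were searched, and the units of one run overlap the pairs counted within it.

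Library depth and composition bear on all values, which are given as CPM, read counts scaled to a common library size. Total counts were between 16735293 and 35844417 in photoconverted tumors and between 12576615 and 29439901 in control tumors, and raw counts of the 10 genes were between 340 and 133505, so that counting error was at most 5.42%. Rn45s, the ribosomal RNA precursor, took 21.9% of counts in photoconverted tumor 4, 35.7% in control tumor 2 and 23.2% in control tumor 4, but under 10% in the other 5 libraries. Fold changes of the 10 genes were therefore also computed in these 5 tumors, 3 photoconverted and 2 control. Markers of the epithelium were low, with no count of Cdx2 and less than 1 CPM of Krt8, Krt18, Krt20 and Epcam in every tumor. Krt19 reached at most 1.14 CPM, and Cdh1 ranged from 0.793 to 3.63 CPM. The 7 epithelial markers (2 of 2 tested with a positive fold change) summed to 2.60 to 5.78 CPM in photoconverted tumors and 2.50 to 4.66 CPM in the controls. Of 12 skeletal muscle markers 12 had a positive fold change, and they summed to 211 to 1698 CPM in photoconverted tumors against 209 to 496 CPM in the controls. Of 7 neutrophil markers tested 7 had a positive fold change, with a summed level of 22.4 to 128 CPM and 18.8 to 38.1 CPM, respectively. Keratinocyte markers (3 of 3 tested with a positive fold change) summed to 1.09 to 18.4 CPM in photoconverted tumors and 1.40 to 3.13 CPM in the controls, with Lor and Dsg3 under 1 CPM in every tumor, and adipocyte markers (5 of 5) to 17.2 to 70.1 CPM and 15.1 to 36.8 CPM. Leukocyte markers (3 of 8 with a positive fold change) summed to 384 to 797 CPM in photoconverted tumors and 285 to 744 CPM in the controls. Markers of fibroblasts and endothelium (5 of 7) summed to 1761 to 2299 CPM and 1678 to 7429 CPM, respectively. Photoconverted tumor 4 had the lowest sum of its group for every list but the last. The part of these cells in the results was not tested.

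Levels per length differed widely between the 10 genes. On the RPKM scale, CPM divided by merged exon length in kilobases, Hsp90ab1 was the most abundant at 937 ± 141 in control tumors (SD, n = 4), and it exceeded the next gene, Hspd1, in 8 of 8 tumors. In control tumors Hspd1 stood at 372 ± 77.5, Hsp90b1 at 258 ± 36.1, Hsp90aa1 at 224 ± 60.2 and Hspe1 at 203 ± 31.0 RPKM (SD, n = 4 each). These 4 genes changed places between tumors. Hspd1 exceeded Hsp90aa1 in 6 of 8 tumors, Hsp90aa1 exceeded Hsp90b1 in 4 of 8 and Hsp90b1 exceeded Hspe1 in 6 of 8. In photoconverted tumors the mean RPKM of Hsp90aa1 was 473 ± 190, close to that of Hspd1 at 465 ± 25.6 (SD, n = 4 each). Fkbp4 and Stip1, with means of 140.3 and 135 RPKM over all tumors, were not separated either, since Fkbp4 was above Stip1 in 3 of 8. Ahsa1 (82.4 RPKM), Trap1 (44.8 RPKM) and Chordc1 (7.89 RPKM) followed in that order in 8 of 8 tumors. Hsp90ab1 thus exceeded its paralog Trap1 in every tumor, with lowest and highest RPKM of 746 and 1325 against 35.9 and 48.7.

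**Figure D1:**
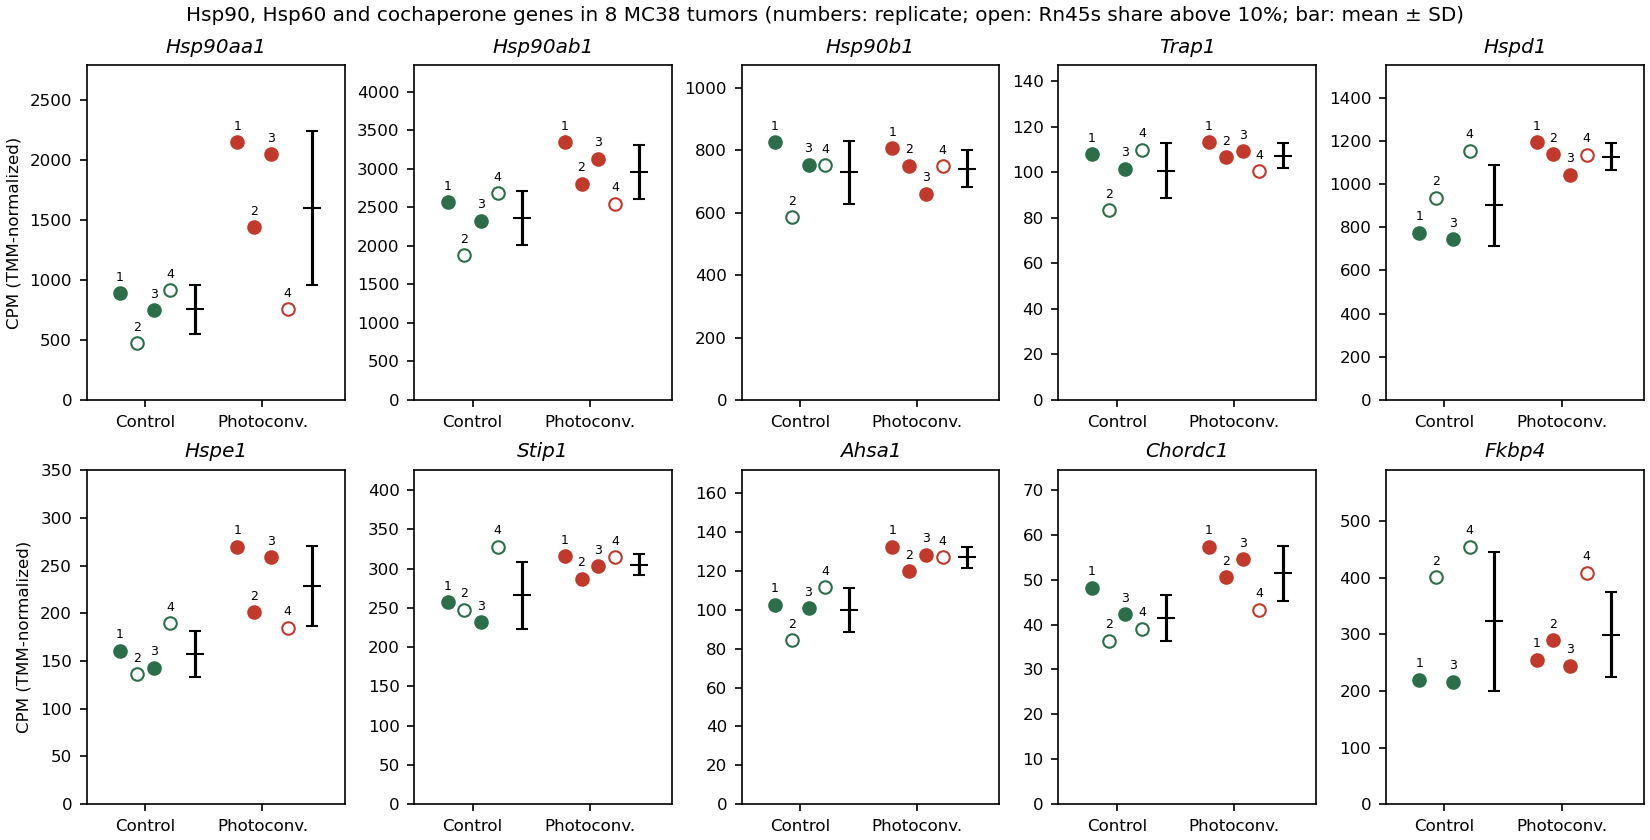
Expression of each gene in CPM (TMM-normalized, vertical axis from 0) in 4 control (green) and 4 photoconverted (red) tumors. Numbers give the replicate, open circles mark the 3 libraries with an Rn45s share above 10%, and bars show mean ± SD. In Ahsa1 alone all 4 photoconverted values, 120 CPM and above, lie over all control values, 112 CPM and below.

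Across the 10 genes, 9 had a positive log2 fold change of photoconverted over control tumors in edgeR, where 46.8% of all genes tested did, and the median was 0.31 against -0.01 for all genes tested. None passed the test. With Benjamini-Hochberg adjustment over all genes tested, the quasi-likelihood test of edgeR called 0 of 10 at a threshold of 0.05, as it did 0% of all genes, and each of the 10 had an adjusted p of 0.999. At an unadjusted p under 0.05, 4 of the 10 were higher in photoconverted tumors (Hspe1, Hsp90aa1, Ahsa1 and Chordc1) against 1.65% of all genes, and 0 were lower against 0.574%. DESeq2's Wald test called 0 of the 10, against 0.118% of all genes, and had 5 higher at an unadjusted p under 0.05, against 2.19% of all genes. Groups did not overlap for 1 of the 10, Ahsa1, where 0.684% of all genes had every photoconverted tumor higher and 0.643% every photoconverted tumor lower.

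The labels state no pairing. Deviations from the group means correlated between libraries of the same replicate number at r from 0.107 to 0.623. Between libraries of different number r ran from -0.600 to 0.482, so the ranges overlapped. With the replicate number as a block 0 of 10 had an adjusted p under 0.05 in edgeR, against 0% of all genes. The number higher at an unadjusted p under 0.05 was then 6, with Hsp90ab1 and Hspd1 added, against 4.38% of all genes. In 2 genes, Ahsa1 and Chordc1, the photoconverted tumor was the higher in all 4 pairs of equal number, a pattern found in 7.20% of all genes. Among the 5 tumors with a low Rn45s share, all photoconverted values lay above all control values in 8 of the 10 genes, against 14.0% of all genes, with Trap1 and Hsp90b1 as the exceptions. The limit on the share was chosen with earlier results of these data known. It leaves out control tumor 4, the highest control in 8 of the 10 genes, and photoconverted tumor 4, the lowest of its group in 5. Control tumor 2, the lowest control in 7, is left out as well. The edgeR fit of these 5 tumors, in which 2 control tumors set the comparison, had 8 of 10 at an unadjusted p under 0.05 and higher, against 6.31% of all genes, and 0 of 10 at an adjusted p under 0.05, against 0.275%. The smallest adjusted p among the 10 in that fit was 0.0786, for Hsp90aa1 in edgeR.

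**Figure D2:**
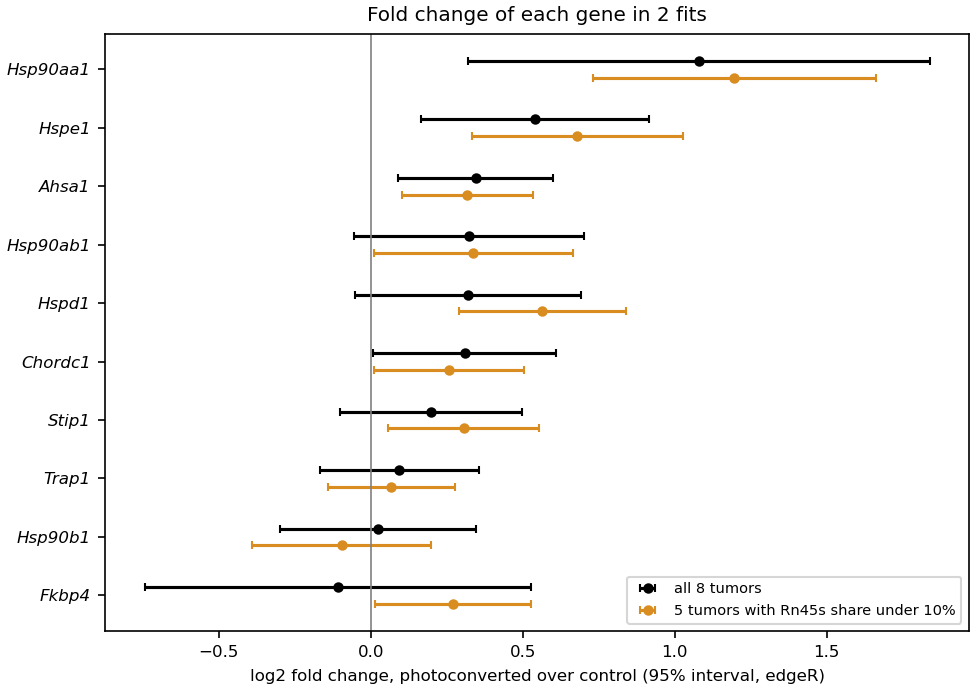
Log2 fold change of each gene (horizontal axis, photoconverted over control, with 95% intervals from edgeR) in all 8 tumors (black) and in the 5 tumors of low Rn45s share (orange). Hsp90aa1 has the highest value in both fits, 1.08 and 1.20, while Fkbp4 lies at -0.11 in the former and at 0.27 in the latter.

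Hsp90aa1, which encodes the stress-inducible cytosolic Hsp90, had the largest difference of the 10. Photoconverted tumors, in the order of their numbers 1 to 4, had 2148, 1441, 2048 and 757 CPM, and control tumors in the same order had 890, 472, 749 and 915 CPM. Photoconverted tumors 1 to 3 thus lay above every control tumor, and photoconverted tumor 4 lay within the control range. The photoconverted mean was 1598 ± 642 CPM and the control mean 756 ± 203 CPM (SD, n = 4 each), a log2 fold change of 1.08 (standard error 0.34, 95% interval 0.32 to 1.84) or 2.11-fold. A two-sided exact permutation test of the 8 CPM values gave p = 0.0857, where the smallest p that 4 tumors against 4 allow is 0.0286. The log2 fold change was 1.20 (standard error 0.20) in the 5 tumors with a low Rn45s share, and leaving out single tumors gave 0.90 to 1.31.

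Hsp90ab1, which encodes the constitutive cytosolic Hsp90, differed less. It had 3340, 2803, 3127 and 2547 CPM in photoconverted tumors and 2566, 1880, 2323 and 2680 CPM in control tumors. Again photoconverted tumors 1 to 3 were above all control tumors, while tumor 4 was below control tumors 1 and 4. The log2 fold change of Hsp90ab1 was 0.32 (standard error 0.17, 95% interval -0.06 to 0.70, exact permutation p = 0.0857). Raw counts within a library show the relation of the 2 paralogs without any scaling between libraries. Counts of Hsp90aa1 per count of Hsp90ab1 in the photoconverted tumors were 0.643, 0.514, 0.655 and 0.297, and those of the controls were 0.347, 0.251, 0.322 and 0.342. This ratio was therefore higher in 3 photoconverted tumors than in any control tumor and overlapped the controls in tumor 4, with a mean difference of 0.69 on the log2 scale (standard error 0.29, exact permutation p = 0.114, adjusted p = 0.229 over 6 ratios), and of 0.84 in the 5 tumors with a low Rn45s share.

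The Hsp90 genes of the ER and of mitochondria showed no such separation. Hsp90b1, encoding Grp94, had 806, 750.4, 661 and 749 CPM in photoconverted tumors and 825, 585, 754 and 753 CPM in control tumors. The photoconverted values lay entirely within the control range. Its log2 fold change was 0.02 (standard error 0.14, 95% interval -0.30 to 0.35, exact permutation p = 0.971), and it was -0.10 (standard error 0.13) in the 5 tumors with a low Rn45s share. The gene 1810014B01Rik, on the opposite strand, overlaps the exons of Hsp90b1 by 415 bases. Reads there cannot be told apart unless strand was used in counting. Counts of 1810014B01Rik were at most 70 in any tumor, which does not limit the number of reads in the shared bases. Trap1 had 113, 107, 109 and 100.4 CPM in photoconverted tumors and 108, 83.3, 101 and 109.8 CPM in control tumors, and the groups overlapped. Trap1 had a log2 fold change of 0.09 (standard error 0.12, 95% interval -0.17 to 0.36, exact permutation p = 0.429), which was 0.012 without control tumor 2, the tumor with its lowest value. The intervals of both genes leave out a change as large as the mean difference of Hsp90aa1, 1.08 on the log2 scale. They overlap the interval of Hsp90aa1, 0.32 to 1.84, and whether the genes differ in fold change was not tested.

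The chaperonin genes differed in how far their groups were apart. Hspd1, which encodes Hsp60, had 1192, 1137, 1042 and 1135 CPM in photoconverted tumors and 775, 937, 744 and 1154 CPM in control tumors. Control tumor 4 alone reached the photoconverted values. Hspd1 had a log2 fold change of 0.32 (standard error 0.16, 95% interval -0.05 to 0.69, exact permutation p = 0.114) and 0.56 (standard error 0.12, 95% interval 0.29 to 0.84) in the 5 tumors with a low Rn45s share, over 1.5 times larger. Hspe1, which encodes the lid Hsp10, had 269.9, 201, 259 and 185 CPM in photoconverted tumors and 161, 136, 143 and 189.9 CPM in control tumors. Only the tumors numbered 4 crossed, since control tumor 4 stood slightly above photoconverted tumor 4. Its log2 fold change was 0.54 (standard error 0.17, 95% interval 0.16 to 0.91, exact permutation p = 0.0571), the largest after Hsp90aa1 and the smallest unadjusted p of the 10 in edgeR, rank 61 of all genes tested.

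Partners of Hsp60 gave a scale for these values. Hspa9, the mitochondrial Hsp70 that passes imported proteins on to Hsp60, had a log2 fold change of -0.05 (standard error 0.18). Counts of Hspd1 per count of Hspa9 in the photoconverted tumors were 1.66, 1.54, 1.76 and 1.20, and those of the controls were 1.04, 1.29, 1.14 and 1.18. The photoconverted tumor was the higher in all 4 pairs of equal number, in pair 4 by the narrowest gap, and photoconverted tumor 4 was below control tumor 2. The mean log2 difference was 0.39 (standard error 0.14, exact permutation p = 0.0571, adjusted p = 0.229 over 6 ratios, and p = 0.125 in an exact sign-flip permutation test of the 4 pairs, the smallest p they allow). In the 5 tumors with a low Rn45s share this difference was 0.60, over 1.5 times larger. Hspd1 to Hspe1 ranged from 4.02 to 6.13 counts per count in photoconverted and from 4.82 to 6.89 in control tumors, a log2 difference of -0.19 (standard error 0.18, exact permutation p = 0.343). It was -0.090 without photoconverted tumor 3, -0.10 without control tumor 2, -0.29 without photoconverted tumor 4 and -0.11 in the 5 tumors. Trap1 to Hspd1 had a log2 difference of -0.24 (standard error 0.18, exact permutation p = 0.257), which was -0.50 in the 5 tumors, -0.14 without control tumor 1 and -0.15 without control tumor 3. Reads of Hspd1 and Hspe1 are uncertain to a degree, because GENCODE M21 names 5 Hspd1 and 6 Hspe1 pseudogenes, none of them in the count table. The treatment of multiply mapped reads is not given in the sources used here.

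**Figure D3:**
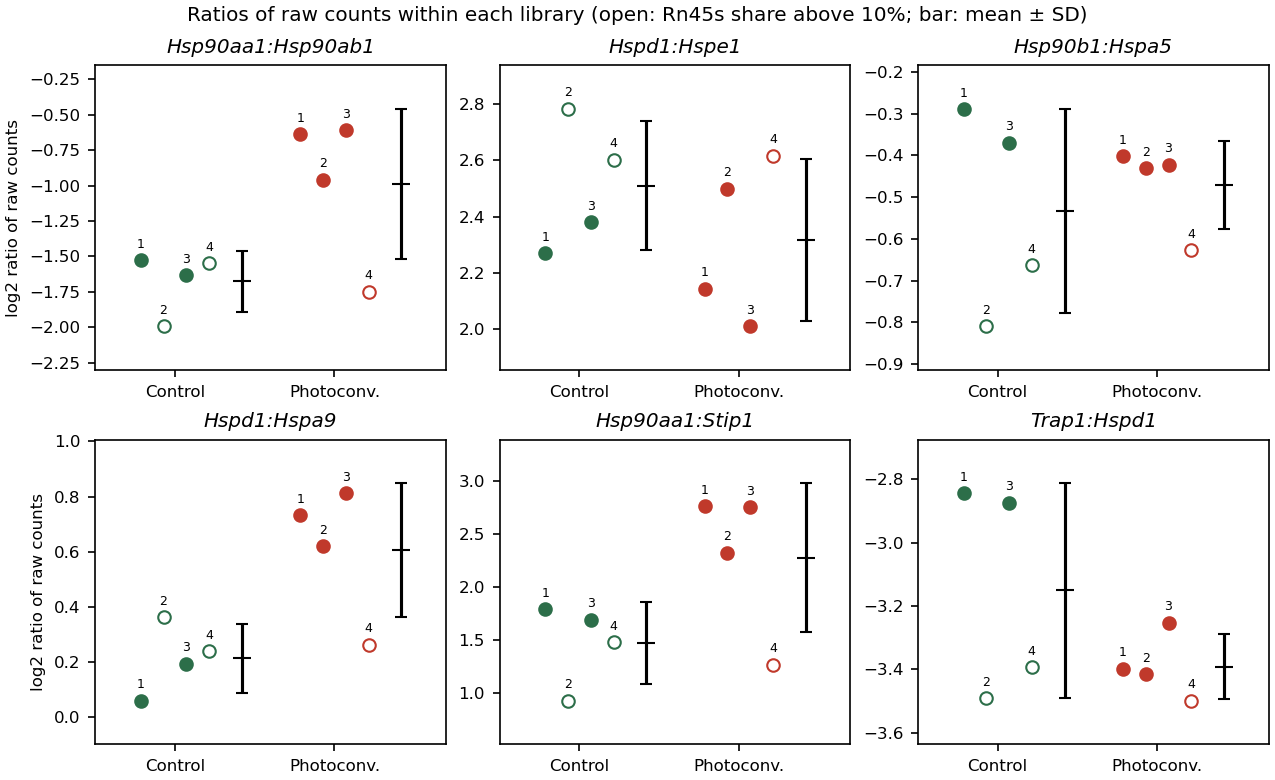
Log2 ratios of raw counts within each library (vertical axes, not from 0) for 6 pairs of genes in control (green) and photoconverted (red) tumors, with replicate numbers, open circles for an Rn45s share above 10% and bars for mean ± SD. In Hsp90aa1:Hsp90ab1, Hspd1:Hspa9 and Hsp90aa1:Stip1 photoconverted tumors 1 to 3 lie above all controls and photoconverted tumor 4 among them.

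Of the Hsp90 cochaperones, Ahsa1 and Chordc1 separated the groups most. Ahsa1, whose product Aha1 stimulates the ATPase of Hsp90, had 133, 119.97, 129 and 127 CPM in photoconverted tumors and 103, 84.3, 100.9 and 112 CPM in control tumors. The groups did not overlap, photoconverted tumor 4 included. The mean was 127 ± 5.23 CPM against 99.9 ± 11.4 CPM (SD, n = 4 each), a log2 fold change of 0.35 (standard error 0.11, 95% interval 0.09 to 0.60, exact permutation p = 0.0286, the smallest possible). Leaving out single tumors gave log2 fold changes of 0.27 to 0.40. Chordc1, encoding an Hsp90-binding protein with zinc-binding CHORD domains, had 57.3, 50.5, 54.5 and 43.3 CPM in photoconverted tumors and 48.2, 36.4, 42.3 and 39.1 CPM in control tumors. Control tumor 1 lay above photoconverted tumor 4, and otherwise the groups were apart. Chordc1 had a log2 fold change of 0.31 (standard error 0.13, 95% interval 0.01 to 0.61, exact permutation p = 0.0571).

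Stip1 encodes Hop, the adaptor that joins Hsp70 to Hsp90. It had 316, 287, 303 and 314 CPM in photoconverted tumors and 257, 247, 232 and 328 CPM in control tumors, so that control tumor 4 had the highest value of all. Stip1 had a log2 fold change of 0.20 (standard error 0.13, 95% interval -0.10 to 0.50, exact permutation p = 0.143) and 0.31 (standard error 0.11) in the 5 tumors with a low Rn45s share, over 1.5 times larger, as it also was without control tumor 4 alone (0.31). Hsp90aa1 counts per Stip1 count were 6.80, 5.02, 6.76 and 2.41 in photoconverted tumors and 3.46, 1.91, 3.23 and 2.79 in control tumors. The mean log2 difference of this ratio was 0.81 (standard error 0.40, exact permutation p = 0.114), and photoconverted tumor 4 lay below 3 of the control tumors.

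Fkbp4, which encodes the prolyl isomerase FKBP52 of steroid receptor complexes, followed another order. It had 255, 289, 245 and 409 CPM in photoconverted tumors and 220, 401, 216 and 454 CPM in control tumors. The 3 libraries with a high Rn45s share had 401 to 454 CPM and the other 5 had 216 to 289 CPM, without overlap. Among all genes tested, 23.4% had these 3 libraries above the other 5, so the order is not particular to Fkbp4. The log2 fold change was -0.11 (standard error 0.28, 95% interval -0.74 to 0.53, exact permutation p = 0.857) over all tumors and 0.27 (standard error 0.11, 95% interval 0.01 to 0.53) in the 5 tumors with a low share, where 245 to 289 CPM in photoconverted tumors stood against 216 to 220 CPM in control tumors. Fkbp5, which encodes the related FKBP51, likewise had 138, 138 and 135.5 CPM in the libraries with a high share (photoconverted tumor 4, control tumor 2 and control tumor 4) and 66.5 to 102 CPM in the other 5. The part of the Rn45s share in these values was not tested beyond the fits given.

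**Figure D4:**
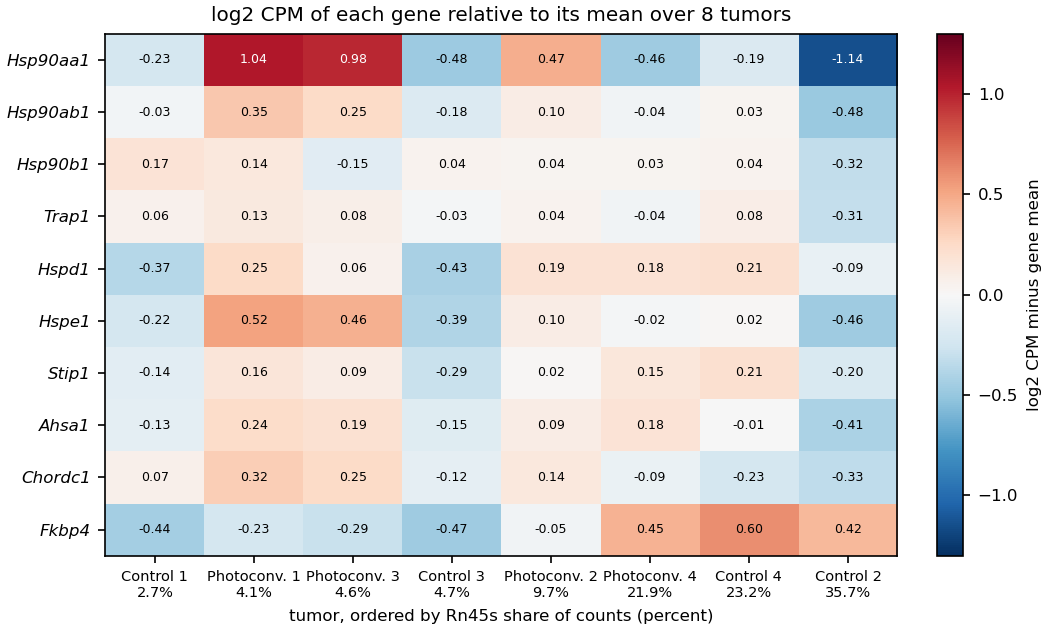
Log2 CPM of each gene minus its mean over the 8 tumors (color and printed value), with tumors in columns ordered by Rn45s share from 2.7% to 35.7%. Hsp90aa1 reaches 1.04 and 0.98 in photoconverted tumors 1 and 3 and -1.14 in control tumor 2, whereas Fkbp4 is at 0.42 to 0.60 in the 3 columns on the right and below 0 in the other 5.

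Values were also examined for further genes of the same pathways. Of 27 other Hsp90 cochaperone genes, 0 had an adjusted or an unadjusted p under 0.05 in edgeR over all tumors, and the median log2 fold change was -0.06. With the replicate number as a block, 2 of the 27 were higher at an unadjusted p under 0.05, Ppid and Cacybp, against 4.38% of all genes. Each was higher in 4 of 4 pairs, as were 7.20% of all genes. In the 5 tumors with a low Rn45s share 1 of the 27 was lower at an unadjusted p under 0.05, Fnip1 (log2 fold change -0.32). Of all 15252 genes in that fit, 641 were. Over all 8 tumors, the 3 of the 27 with the smallest p were Cacybp, Ppid and Tsc1, with log2 fold changes of 0.25, 0.24 and -0.13 (standard errors 0.13, 0.14 and 0.10). Cacybp, which encodes a calcyclin-binding protein, was 1 of the 3 genes closest to Chordc1 in pattern, with a root mean square difference of 0.06 in centered log2 CPM over 8 tumors. Cdc37, the kinase-specific cochaperone, and Ptges3, which encodes p23, had log2 fold changes of -0.06 (standard error 0.27) and 0.04 (standard error 0.12). Fkbp5 had -0.21 (standard error 0.28).

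The 8 genes of the cytosolic chaperonin TRiC had 0 at an unadjusted p under 0.05, with a median log2 fold change of 0.06 and values from 0.01 to 0.21 (Cct8, standard error 0.14). Cct3 and Cct4 followed Cct8 by p, with log2 fold changes of 0.10 and 0.09. Among 18 mitochondrial import, chaperone and protease genes, 0 had an unadjusted p under 0.05 over all tumors, the median was -0.02, and the 3 with the smallest p were Spg7 (-0.14), Tomm20 (0.12) and Timm17a (0.15). In the 5 tumors 2 of these 18 were higher at an unadjusted p under 0.05, Htra2 (0.28) and Tomm40 (0.32), against 6.31% of all genes. Their values over all tumors were -0.13 and -0.08. With the block 1 of the 18 was lower, Lonp1 (-0.24), as were 236 of all 14468 genes. Among 16 ER chaperones and ER stress genes, 0 had an unadjusted p under 0.05 over all tumors and the median was -0.04. Hspa5, which encodes the ER Hsp70 BiP, ranged from 885 to 1158 CPM in photoconverted tumors and from 974 to 1192 CPM in the controls, a log2 fold change of -0.03 (standard error 0.14). Herpud1, Cnpy3 and Sdf2l1 had the smallest p of this list, with log2 fold changes of -0.16, -0.24 and -0.26. Hsf1, encoding the heat shock factor itself, averaged 44.5 CPM in photoconverted tumors and 43.2 CPM in the controls (log2 fold change 0.04, standard error 0.15), and 0 of the 4 heat shock factor genes tested had an unadjusted p under 0.05. By contrast, 7 of 8 inducible heat shock genes listed for reference were higher at an unadjusted p under 0.05, against 1.65% of all genes. The median log2 fold change of the 8 was 1.82. In the 5 tumors 4 of the 8 had an adjusted p under 0.05 in edgeR, against 0.275% of all genes. Hspa1a, an inducible Hsp70 gene, had a log2 fold change of 4.38 (standard error 1.28), against 1.08 for Hsp90aa1. Its values were 3531, 2686.5, 5465 and 71.6 CPM in photoconverted tumors and 51.5, 51.1, 31.2 and 433 CPM in control tumors. Photoconverted tumor 4 thus lay within the control range. These lists were drawn up with earlier results of these tumors known.

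**Figure D5:**
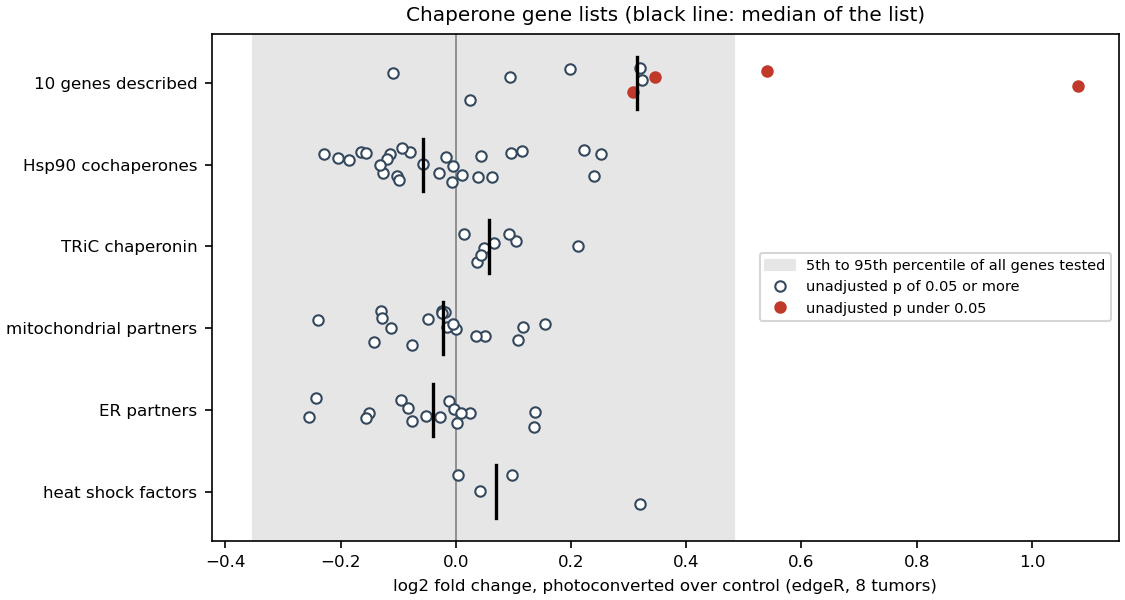
Log2 fold changes (horizontal axis, photoconverted over control, edgeR in 8 tumors) of the 10 genes and of 5 further lists, 1 circle per gene, with filled red circles for an unadjusted p under 0.05 and a black line at each median. The grey band spans the 5th to 95th percentile of all genes tested, -0.35 to 0.48, which Hsp90aa1 and Hspe1 exceed.

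Which genes had the most similar course over the 8 tumors was measured as the root mean square difference in centered log2 CPM. Among the nearest to Hsp90aa1 were Ccrn4l (0.19) and Cxcl1 (0.21), where the values of Hsp90aa1 itself had a root mean square deviation of 0.72 from their mean. Ccrn4l, which encodes nocturnin, had 47.1, 37.0, 53.5 and 21.7 CPM in photoconverted tumors and 23.1, 16.6, 18.0 and 24.6 CPM in control tumors, also with photoconverted tumor 4 among the controls. Nearest to Hsp90ab1 were Nol8 (0.06), BC027231 (0.08) and Mapk6 (0.08). Hspd1 was nearest to Ifrd1 (0.07), Dyrk3 (0.08) and Map2k3os (0.08), and Hspe1 to Prkg2 (0.12), Gch1 (0.13) and Fam107b (0.13). Among the 10 genes themselves, Hsp90b1 and Trap1 were the closest pair (0.099), followed by Hsp90ab1 and Ahsa1 (0.10). Both Hsp90b1 and Trap1 varied little, with root mean square deviations of 0.15 and 0.13 from their means. Among all genes tested Trap1 was only the 361st closest to Hsp90b1, and Hsp90b1 the 402nd closest to Trap1. Ahsa1 was the 17th closest to Hsp90ab1, Hsp90ab1 the 22nd closest to Ahsa1, and Hsp90ab1 the 4th closest to Hspe1 (0.14). Hspd1, in contrast, was closer to Stip1 (0.12) than to Hspe1. Fkbp4 was far from the other 9, with 0.34 from Hspd1 as the smallest difference.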

How the data were processed

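Bulk RNA-seq of 4 photoconverted and 4 control tumors, 1 per mouse, was analysed. The submitters' processing notes name CASAVA, FastQC, Trim Galore, HISAT2, featureCounts and DESeq2, and the build mm10, without versions, and the annotation and strand setting are not given in the sources used here. The sample labels name a SMARTER stranded kit and the paper a TruSeq stranded kit. The deposited tables hold raw counts for each gene symbol and normalized signal values, which equal the raw counts divided by 1 size factor per library. Each column was assigned to its tumor through the sample labels.

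Raw counts were tested with edgeR 4.0.16 in R 4.3.3 (filterByExpr by group, TMM, glmQLFit and glmQLFTest, Benjamini-Hochberg over all 14468 genes tested, threshold 0.05). The standard error was the log2 fold change over the square root of F. CPM used TMM factors, and log2 CPM a prior count of 2. Ratios used raw counts plus 0.5. Single values were tested over all 70 arrangements of tumors in two-sided exact permutation tests. Merged exon lengths came from GENCODE M21. In 7 of the 10 genes the 8 tumors had the same order in the deposited normalized values and in CPM. Centered log2 values of these measures differed by at most 0.00885. Alternatives used DESeq2 1.42.0, limma 3.58.1 on log2 of the normalized values plus a pseudocount of 1, other normalization factors, no expression filter, Rn45s left out or as a covariate, tumors with an Rn45s share under 10%, the replicate number as a block, and each tumor left out. The procedure was tested on simulated data.

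The labels state no pairing, but deviations from the group means correlated, across genes, between tumors of the same number in all 4 pairs (r from 0.107 to 0.623), against 3 of 12 pairs of different number above 0.1. Pairs of different number reached r = 0.482, so pairs of the same number were not set apart from all others. No libraries of a group agreed within sampling noise (smallest chi-square per degree of freedom 23.8). The 10 genes, the lists and the limit on the Rn45s share were chosen with earlier results of these data known. Genes named beyond the 10 were the 3 with the smallest p of each list, the 3 nearest in pattern to Hsp90aa1, Hsp90ab1, Hspd1 and Hspe1 (1 of which is not reported here), and Hspa5, Hspa9, Cdc37, Ptges3, Fkbp5, Hsf1 and Hspa1a. Cacybp was set beside Chordc1, and Fkbp5, Ccrn4l and Hspa1a were given by tumor, and Fnip1, Htra2, Tomm40 and Lonp1 were named, after their values were seen.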

Additional observations from a re-analysis of the deposited data

Results flagged for a closer look

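Among 72 groups of 4 tumors examined, 2 had a tumor far from the other 3, where chance gives about 1 in 20, or 3.6. Control tumor 4 had 433 CPM of Hspa1a, against 51.5 CPM in the nearest control tumor. Photoconverted tumor 4 had a log2 ratio of Hsp90b1 to Hspa5 counts of -0.63, against -0.43 in the nearest photoconverted tumor, while control tumors ranged from -0.81 to -0.29 (mean difference 0.06, exact permutation p = 0.686).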

How the results depend on the processing

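No gene of the 10 passed an adjusted p of 0.05 in edgeR, DESeq2 or limma under any of the 17 alternatives (smallest 0.0786 in edgeR, for Hsp90aa1 in the 5 tumors with a low Rn45s share). Of all genes, 17 passed in DESeq2, 42 in those 5 tumors, and 0 to 11 with each tumor left out, the 11 without photoconverted tumor 4. Of the 10 genes, 8 had an unadjusted p under 0.05 in the 5 tumors, against 6.31% of all genes higher, and 3 to 5 with each tumor left out, where 0.725% to 3.9% of all genes were. The replicate number as a block gave 6 and changed no call at an adjusted p. Signs turned only in Fkbp4, Hsp90b1 and Hsp90b1:Hspa5. The log2 fold change of Fkbp4 was 0.038 with the Rn45s share as a covariate, 0.27 in the 5 tumors and -0.30 to 0.10 with each tumor left out. That of Hsp90b1 was -0.096 in the 5 tumors and -0.069 to 0.089 with each tumor left out. The log2 difference of Hsp90b1:Hspa5 was -0.089 in the 5 tumors and -0.030 to 0.14 with each tumor left out. The cause was not tested. Exact tests of 3 tumors against 2 cannot reach 0.05, and 4 against 4 allow no adjusted p under 0.05 over 6 ratios unless most reach the smallest p.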
